A study of Homo sapiens with 8 samples.

Results

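The genes described here are those of the human table whose symbols name subunits of potassium, sodium and calcium channels. The rule reads symbols alone, from the KCN, SCN, CACNA1, CACNA2D, CACNB and CACNG series, and uses no measured value, though it was written with earlier results of these data known. The rule took 135 of the 56303 genes in the table, of which 95 belong to potassium, 14 to sodium and 26 to calcium channels. It works on names, so it also took 31 inward rectifier and K2P leak channel genes, whose pores open without a voltage sensor, and auxiliary subunits that form no pore. The counts came from MeRIP-seq of SK-N-BE(2), an established MYCN-amplified human neuroblastoma line, in which fragmented poly(A) RNA was either kept as input or precipitated with an antibody against N6-methyladenosine (m6A). One arm carried a control shRNA (sh-NC) and the other an shRNA against METTL14 (shMETTL14), a subunit of the m6A methyltransferase complex. Knockdown used a lentiviral shRNA vector, according to the methods of the study. There were 2 cultures per arm, and each gave 1 IP and 1 input library, for 8 libraries in all. The labels do not say whether the shMETTL14 cultures 1 and 2 were repeats of 1 shRNA or carried different ones, nor that cultures were separate infections, so the p-values measure the spread between these samples, which may be technical.

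Voltage-gated channels are membrane proteins whose pore opens when the membrane potential changes. Sodium channels carry the rising phase of the action potential, potassium channels end it and set the resting potential and firing pattern, and calcium channels couple depolarisation to secretion, contraction and transcription. A pore is built from an alpha subunit (alpha1 in calcium channels), and beta, alpha2delta, gamma and other auxiliary subunits change its traffic and gating. Sympathetic neurons and chromaffin cells, the lineage of neuroblastoma, are electrically excitable and use all 3 classes.

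Total counts ran from 32027379 to 47205265 per library. METTL14 itself was at 51.5 and 50.8 CPM (counts relative to the TMM-scaled library size) in the sh-NC inputs and at 14.3 and 15.3 CPM in the shMETTL14 inputs, a log2 fold change of -1.79 ± 0.066 (SE). All 10 adrenergic neuroblastoma markers looked up, among them TH and DBH, had at least 10 counts in every input. Their summed level was 6725 and 6488 CPM in sh-NC and 7419 and 7324 CPM in shMETTL14. At an adjusted p under 0.05, 7 of these markers were higher and 0 lower, where all genes tested gave 11.7% higher and 12.3% lower. Of 10 mesenchymal or Schwann-like markers 7 had at least 10 counts in every input. Over all 10, 1 was higher and 4 were lower. The higher one was not among the 7, with 6 counts in sh-NC input 2. The sum of the 10 was 471 and 469 CPM in sh-NC against 412 and 417 CPM in shMETTL14. The Schwann cell marker SOX10 stayed at 0.378 CPM or below in every input. These marker levels moved with the arms in which the channel genes below were compared, and their part in those results was not tested. In bulk RNA, fewer cells of a type and less RNA per cell cannot be told apart.

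Of the 135 genes, 80 had at least 10 counts in every input and are called measured here: 53 potassium, 10 sodium and 17 calcium channel genes. The other 55 were low. Among these, 15 had no count in any input, and the highest count of a low gene in any input was 35. The low genes included the skeletal muscle pores SCN4A and CACNA1S, the neuronal pores SCN1A, SCN10A and CACNA1E, and all KCNA pore genes but KCNA2. The filter of the test kept 86 of the genes in the input comparison, 6 of them low.

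Levels between genes were compared as CPM per kilobase of exon. On this scale 36 of the 80 measured genes reached 1 in every input. KCNH2, the hERG channel that repolarises the heart, was the highest, at 31.9 and 32.3 CPM per kilobase in sh-NC against 32.5 and 31.2 in shMETTL14. KCNJ8, the pore of an ATP-sensitive potassium channel, followed at 17.3 and 17.7 against 16.1 and 14.9 CPM per kilobase. Both stood apart from every other member on this scale, and the ranges of KCNH2 in the arms overlapped whereas those of KCNJ8 did not.

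Other leading potassium channel genes lay lower. KCNG1, a silent subunit that alters other Kv channels, was at 4.31 to 4.84 CPM per kilobase over the 4 inputs. KCNAB2, a cytoplasmic Kv beta subunit, was at 3.27 to 3.60, below KCNG1 in every input. KCNG1 shares 434 of its 5437 exonic bases with RP5-955M13.4, which had 3095 counts over the 8 libraries against 7849 for KCNG1. KCNAB2 shares 111 of its 9534 exonic bases with NPHP4. The order of KCNG1 and KCNAB2 is therefore uncertain. Among sodium channel genes SCN3B (5.63 to 8.11 CPM per kilobase), SCN3A (5.37 to 6.92) and SCN9A (3.53 to 5.44) led with overlapping ranges, SCN9A being the lowest of the 3 in each input. Among calcium channel genes CACNA2D1, the alpha2delta subunit bound by gabapentin, was at 7.82 to 8.29 CPM per kilobase, above the low-voltage-activated pore CACNA1H (5.09 to 5.98) and CACNA2D2 (3.22 to 4.46) in every input.

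**Figure D1:**
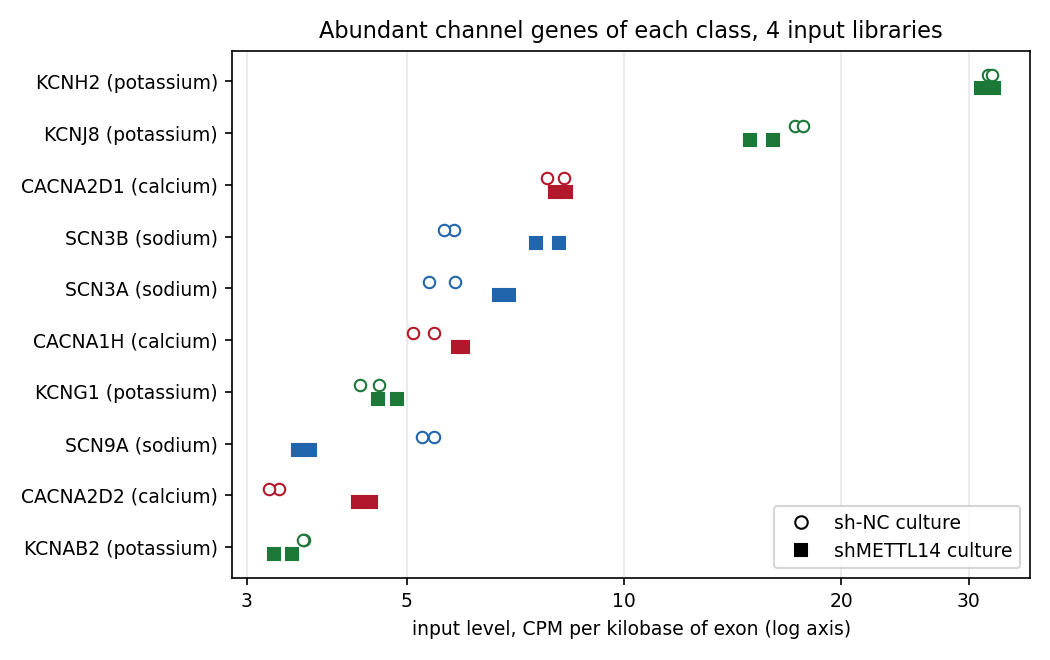
Input level in CPM per kilobase of exon (log axis) of abundant genes of each class, with 1 symbol per input library; open circles are sh-NC and filled squares shMETTL14 cultures. KCNH2 and KCNJ8 lie above all others, and SCN3B, SCN9A and CACNA2D2 are among those with no overlap between the arms.

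The input comparison asked which channel transcripts differed in abundance after METTL14 knockdown. Of the 80 measured genes 16 were higher and 9 lower in shMETTL14, and 55 did not pass. Over all 22245 genes tested, 11.7% were called higher and 12.3% lower, and among genes with at least 10 counts in every input 12.5% and 13.2%, against 20.0% and 11.3% of the measured channel genes. The median log2 fold change was -0.01 over the measured channel genes and 0.00 over all genes tested. The calls fell unevenly over the families. Sodium channel genes had 4 higher and 3 lower of 10, calcium channel genes 4 and 1 of 17, and potassium channel genes 8 and 5 of 53. Within the potassium class, Kv alpha subunits had 6 higher and 0 lower of 18, whereas inward rectifiers had 0 higher and 2 lower of 7 and K2P leak channels 0 and 1 of 10. Differences between families were not tested. For 2 cultures against 2, the smallest 2-sided p of an exact permutation test is 0.333. Most genes below were also named by their call, so a lack of overlap between the arms is only a description.

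Among sodium channel pores, the most abundant genes moved in opposite directions. SCN9A, the pore of sensory and sympathetic neurons known for its part in pain, was at 56.4 and 54.4 CPM in sh-NC and at 36.6 and 38.1 CPM in shMETTL14. SCN3A, the pore of the embryonic brain, was at 57.2 and 52.6 CPM in sh-NC and at 65.8 and 67.8 CPM in shMETTL14. The groups did not overlap for either gene. SCN9A fell by 0.57 on the log2 scale (SE 0.055, adjusted p = 2.81e-08, edgeR quasi-likelihood test, Benjamini-Hochberg adjusted), and SCN3A rose by 0.28 (SE 0.052, adjusted p = 2.03e-04). Both lie in the sodium channel gene cluster on the minus strand of chromosome 2, SCN3A at chr2:165087522-165204067 and SCN9A at chr2:166195185-166375993 (GRCh38). Of the 10364 exonic bases of SCN9A, 511 are shared with AC010127.3 on the other strand, which had 787 counts over the 8 libraries against 16550 for SCN9A. SCN3A shares 442 of its 9807 exonic bases with AC013463.2 on the other strand, which had 1476 counts against 19696 for SCN3A.

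SCN8A, the pore of the node of Ranvier, was at 27.9 and 29.8 CPM in sh-NC and at 35.7 and 37.6 CPM in shMETTL14, and rose by 0.35 (SE 0.064). The arms did not overlap. Of its 13735 exonic bases 896 are shared with RP11-923I11.3, which had 358 counts over the 8 libraries against 11638 for SCN8A. SCN11A, a tetrodotoxin-resistant pore of nociceptors, was at 2.53 and 1.88 CPM in sh-NC and at 0.988 and 0.575 CPM in shMETTL14, a fold of 2.81 down (log2 -1.49, SE 0.30, adjusted p = 6.51e-04 in the edgeR test), which was the largest absolute log2 change among the measured channel genes. It rested on 87 and 65 counts against 40 and 23. SCN11A lies on the minus strand at chr3:38845769-38950561. SCN2A, a pore of the axon initial segment, did not pass (log2 0.09).

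The sodium channel beta subunits split in the same manner. SCN3B was at 54.9 and 53.3 CPM in sh-NC and at 71.5 and 76.8 CPM in shMETTL14, a log2 rise of 0.45 (SE 0.051, adjusted p = 2.43e-07, edgeR). SCN4B, whose tail can block the open pore and gives resurgent current, was at 3.32 and 4.33 CPM against 1.61 and 2.22 CPM, and fell by 1.00 (SE 0.21, adjusted p = 8.45e-04, edgeR). The arms did not overlap for either. SCN2B, adjacent to SCN4B on chromosome 11, did not pass at 0.30 (SE 0.30). Without shMETTL14 culture 2 the calls of SCN3A, SCN8A and SCN11A were lost, and without culture 1 that of SCN4B, all with the same direction.

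Per kilobase, the make-up of the sodium channel pore pool shifted while its summed level overlapped between the arms. The shares were not tested apart from the genes themselves. The summed level of the 6 measured pores was 15.8 and 15.1 CPM per kilobase in sh-NC against 15.5 and 15.7 in shMETTL14. The share of SCN9A in that sum was 34.6% and 34.8% in sh-NC against 22.9% and 23.3% in shMETTL14. The share of SCN3A was 37.0% and 35.6% against 43.4% and 44.0%, and that of SCN8A 12.9% and 14.4% against 16.8% and 17.4%. In sh-NC the shares of SCN3A and SCN9A were within 3 percentage points of each other, and in shMETTL14 SCN3A stood clearly above. For the beta subunits the share of SCN4B went from 8.59% and 11.1% to 3.36% and 4.43%, and SCN3B made up the bulk in all 4 inputs.

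Among calcium channel pores CACNA1B, the N-type channel of nerve terminals, was at 21.3 and 22.1 CPM in sh-NC and at 33.9 and 33.2 CPM in shMETTL14. It rose by 0.63 (SE 0.067, fold 1.54, adjusted p = 1.34e-07, edgeR). CACNA1C, the L-type channel of heart, muscle and neurons, was at 22.2 and 20.8 CPM against 17.2 and 16.5 CPM and fell by 0.35 (SE 0.079, adjusted p = 0.00181, edgeR). Of the 19103 exonic bases of CACNA1C, 1200 are shared with genes on the other strand. Among these RP11-885B4.1 had 1983 counts over the 8 libraries against 5182 for CACNA1C. CACNA1H, a T-type channel, was at 43.8 and 47.0 CPM against 51.4 and 50.7 CPM and rose by 0.17 (SE 0.055). No sh-NC culture overlapped a shMETTL14 culture for these genes. Unlike that of the sodium channel pores, the summed level of the 6 measured calcium channel pores did not overlap between the arms. It was 8.61 and 9.08 CPM per kilobase in sh-NC against 10.5 and 10.3 in shMETTL14. In this pool the share of CACNA1B was 25.0% and 24.6% in sh-NC and 32.5% in both shMETTL14 inputs, that of CACNA1C 13.5% and 12.0% against 8.58% and 8.38%. The share of CACNA1H, whose level rose, was 59.1% and 60.1% against 56.8% and 57.1%.

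Of the auxiliary calcium channel subunits CACNA2D2, an alpha2delta subunit that brings pores to the surface, was at 21.0 and 20.3 CPM in sh-NC and at 28.2 and 27.0 CPM in shMETTL14. It rose by 0.42 (SE 0.071, adjusted p = 8.62e-05, edgeR), whereas the more abundant CACNA2D1 was at 70.5 to 74.7 CPM in all 4 inputs and did not pass (log2 0.02, SE 0.047). CACNA2D2 shares 606 of its 6322 exonic bases with CYB561D2, which had 2979 counts over the 8 libraries against 6317 for CACNA2D2. CACNG8, which despite its name is known mainly as a partner of AMPA receptors, was at 15.3 and 16.1 CPM against 19.2 and 18.9 CPM and rose by 0.28 (SE 0.081). None of the 4 beta subunit genes passed, with log2 fold changes of -0.30 to 0.18. CACNA1B and CACNA2D2 passed without any single culture. Without shMETTL14 culture 2 CACNA1C, CACNA1H and CACNG8 did not pass. Nor did CACNA1H and CACNG8 without shMETTL14 culture 1 or without sh-NC culture 1.

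The 6 called Kv alpha subunits all rose. KCND2, a pore of the A-type current that delays firing, was at 2.47 and 2.28 CPM against 4.05 and 4.07 CPM, a rise of 0.77 (SE 0.18, adjusted p = 0.00216, edgeR). KCNH8, a channel of the ELK branch of the hERG family, was at 11.1 and 10.7 CPM against 14.2 and 14.8 CPM, a rise of 0.42 (SE 0.094). In each, both shMETTL14 cultures lay above both sh-NC cultures.

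The same order held for KCNC1, a fast-deactivating pore of fast-spiking neurons, at 12.7 and 11.0 CPM in sh-NC and 15.0 CPM in both shMETTL14 inputs (log2 0.34, SE 0.096). KCNH5 and KCNH1, pores of the EAG branch, rose by 0.36 (SE 0.13) and 0.25 (SE 0.085). KCNH5 was at 5.47 and 5.55 CPM against 7.14 and 7.05 CPM, and KCNH1 at 15.2 and 17.5 CPM against 20.1 and 18.9 CPM. For KCNH1 44.6% of the exonic bases are shared with other genes, so its value is uncertain. The 12 Kv alpha genes that did not pass had log2 fold changes on both sides of 0. KCNH2, which made up 67.3% and 67.4% of the summed Kv alpha level per kilobase in sh-NC against 62.1% and 62.2% in shMETTL14, was one of them, at 187 and 190 CPM against 191 and 183 CPM (log2 -0.01, SE 0.037, adjusted p = 0.889, edgeR).

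Of the channels opened by internal ions KCNN1, a small-conductance calcium-activated channel of the after-hyperpolarisation, was at 4.86 and 4.53 CPM in sh-NC and at 8.30 and 8.25 CPM in shMETTL14. Its log2 rise of 0.82 (SE 0.13, fold 1.76, adjusted p = 3.58e-05, edgeR) was the largest rise among the channel genes that passed. KCNT2, a sodium-activated channel, went the other way, from 22.6 and 23.4 CPM to 17.6 and 15.8 CPM (log2 -0.47, SE 0.080, adjusted p = 9.51e-05, edgeR). The arms did not overlap in either gene, and per kilobase the share of KCNN1 in this family went from 13.8% and 12.9% to 23.0% in both shMETTL14 inputs. KCNMB3, a beta subunit of the large-conductance calcium-activated channel, was at 9.05 and 8.17 CPM against 10.6 and 10.8 CPM (log2 0.31, SE 0.11). Of its exonic bases 47.5% are shared with other genes, so its value is uncertain.

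The remaining potassium channel calls were all lower in shMETTL14. KCNJ9, a G-protein-gated inward rectifier, was at 3.08 and 2.83 CPM in sh-NC and at 1.43 and 1.25 CPM in shMETTL14, a fold of 2.20 down (log2 -1.14, SE 0.22, adjusted p = 4.68e-04, edgeR). KCNIP3, a calcium-binding partner of Kv channels also known as a transcriptional repressor, was at 2.39 and 2.54 CPM against 1.46 and 1.60 CPM (log2 -0.69, SE 0.23). KCNK1, a K2P leak channel, was at 14.3 and 13.2 CPM against 9.61 and 10.1 CPM (log2 -0.48, SE 0.099, adjusted p = 6.61e-04, edgeR). Each had both shMETTL14 cultures below both sh-NC cultures. KCNJ8 was at 42.9 and 44.0 CPM against 39.9 and 37.1 CPM, and fell by 0.17 (SE 0.059). The other measured inward rectifiers had log2 values of both signs. Of the 10 K2P genes 8 had a negative and 2 a positive log2 value, with KCNK1 the only call.

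The calls of the potassium channel genes did not all stand when 1 culture was left out. KCNN1 passed without any single culture. KCND2, KCNH8, KCNJ9, KCNK1 and KCNT2 missed the threshold without shMETTL14 culture 2 and passed without each of the other 3. KCNC1 and KCNMB3 were lost without sh-NC culture 2 or either shMETTL14 culture, KCNH1 without sh-NC culture 1 or either shMETTL14 culture, and KCNH5, KCNIP3 and KCNJ8 without any 1 of the 4 cultures. Over all 3 classes 19 of the 25 calls were kept without sh-NC culture 1, 19 without sh-NC culture 2, 15 without shMETTL14 culture 1 and 7 without shMETTL14 culture 2. DESeq2 kept 17 of the 25, losing CACNA1H, CACNG8, KCNH1, KCNH5, KCNIP3, KCNJ8 and KCNMB3 among others. All 25 kept their direction in each of the 11 alternative settings that tested them.

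Genes outside the rule whose products anchor channels, assemble with them or belong to the same superfamily were looked up as a list of 45 names, of which 43 were in the table and 34 had at least 10 counts in every input. In shMETTL14 10 of these were higher, 8 lower and 16 did not pass, where all genes with at least 10 counts in every input had 12.5% higher and 13.2% lower. Among those higher were SPTBN4, the spectrin of the axon initial segment (log2 0.61), and the cell adhesion proteins of axonal domains CNTN1 (0.41) and NFASC (0.36). Among those lower was CNTNAP2, which clusters Kv channels beside the node of Ranvier (-0.78).

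RefSeq promoters (GRCh38.p14, 250 bases before to 50 after the start) were found for 53 of the measured genes, and windows were searched for CACGTG, the E-box core read by MYC-family proteins, since this line has MYCN at over 4400 CPM in every input. The motif reads the same on both strands. A gene can have several such windows. The motif was present for 5 of the 53 genes (9.43%), against 8.77% of all 27305 genes with a window, and in 6 of their 89 windows (6.74%), against 7.26% of all 35116 windows. One window of each of the 5 genes is shown on the strand of the gene with the motif in capitals.
CACNA1B: cgggccccgcCACGTGaccggcccct
KCND2: cgcagcccagCACGTGaagcttccct
KCNAB1: acagagtattCACGTGttaattcact
KCNAB2: gcccttgttcCACGTGcgagccctgt
KCNH4: cgtgtggggcCACGTGgcgggtgcgg
They lie at chr9:137877727-137877752 (plus strand), chr7:120272984-120273009 (plus), chr3:156290969-156290994 (plus), chr1:6034664-6034689 (plus) and chr17:42181187-42181212 (minus). CACNA1B and KCND2 rose in the input, whereas KCNAB1, KCNAB2 and KCNH4 did not pass. The 9-letter and 7-letter parts of the repressor element of neuronal genes, TTCAGCACC and GGACAGC on either strand, were found for 2 (3.77%) and 7 (13.2%) of the 53 genes, against 0.469% and 7.33% of all genes, and in 2.25% and 7.87% of the 89 windows, against 0.376% and 6.03% of all windows. A match is a description of letters and not evidence of binding.

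Antibody enrichment was read as the ratio of IP to input CPM, which compares a gene with the average gene and not with an unmethylated standard. In sh-NC 21 of the 80 measured genes were higher in IP than in input and 14 lower. Over all 22953 genes tested 29.1% were higher and 29.8% lower, against 26.3% and 17.5% of the channel genes. Among genes with at least 10 counts in every input the shares were 31.7% and 32.7%. In shMETTL14 25 were higher and 15 lower, with 28.9% and 29.1% of all genes. There the genes with at least 10 counts in every input gave 31.6% and 32.0%. Scaling by library size alone, which moves the median log2 of all genes to -0.14 and -0.13, gave 17 higher and 22 lower in sh-NC against 18 and 18 in shMETTL14. With the main scaling 21 genes were called higher in both arms, 9 lower in both and 0 in opposite directions.

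The classes differed in their counts. Sodium channel genes had 5 higher and 1 lower of 10 in sh-NC, calcium channel genes 1 higher and 5 lower of 17, and potassium channel genes 15 and 8 of 53. These differences were not tested. All 6 sodium channel pores had a positive log2 IP over input in both arms, and 4 passed in each. SCN8A had an IP over input of 1.54 and 1.55 in the sh-NC cultures against 1.57 and 1.49 in the shMETTL14 ones, a log2 enrichment of 0.62 (SE 0.062) in sh-NC. SCN9A had 1.48 and 1.59 in sh-NC against 1.61 and 1.47 in shMETTL14, with a log2 of 0.61 (SE 0.051). Both were high in every culture and overlapped between the arms, though the input level of SCN9A had fallen and that of SCN8A had risen. SCN2B was the sodium channel gene called lower (log2 -0.88, adjusted p = 0.0484, edgeR), from IP over input of 0.878 and 0.215 in the sh-NC cultures, 34 and 44 input counts and 38 and 8 IP counts. Its value was -0.18 to -2.19 when 1 culture was left out, and it missed the threshold without sh-NC culture 2, without either shMETTL14 culture and with DESeq2.

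The gamma subunit genes CACNG7 and CACNG8, both known as AMPA receptor partners, lie beside each other on the plus strand of chromosome 19 (chr19:53909335-53943941 and chr19:53963040-53990215) and share no exonic base with another gene. CACNG7 had an IP over input of 0.524 and 0.463 in sh-NC against 0.652 and 0.506 in shMETTL14. CACNG8 had 1.58 and 1.61 in sh-NC against 1.35 and 1.54 in shMETTL14. No culture of the former came near any culture of the latter. The log2 values in sh-NC were -1.01 (SE 0.14, adjusted p = 8.54e-09) and 0.67 (SE 0.080, adjusted p = 3.35e-10) in the edgeR test. Of the 3 measured alpha2delta genes, CACNA2D1 at 0.827 and 0.837 and CACNA2D2 at 0.801 and 0.869 were called lower in sh-NC, and CACNA2D3 at 0.779 and 0.885 did not pass (adjusted p = 0.106, edgeR).

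Among potassium channel genes, the most abundant pore was on the low side. KCNH2 had an IP over input of 0.593 and 0.583 in sh-NC against 0.547 and 0.602 in shMETTL14 (log2 -0.77, SE 0.042, in sh-NC). KCNAB2 had 0.623 and 0.576 against 0.699 and 0.659 (log2 -0.73, SE 0.071). KCNJ8, by contrast, was at 1.59 and 1.56 against 1.54 and 1.66 (log2 0.65, SE 0.054). Of these, KCNAB2 was the one whose arms did not overlap. The lowest were the K2P genes KCNK7 (log2 -2.09, SE 0.74, on 14 and 15 input counts and 4 and 3 IP counts) and KCNK15 (-1.56, SE 0.25, with 21.7% of its exonic bases shared with other genes). The call of KCNK7 was lost without either sh-NC culture (adjusted p = 0.149 and 0.116, edgeR).

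The highest were KCNJ14, an inward rectifier, with IP over input of 2.95 and 2.08 in sh-NC against 1.60 and 1.42 in shMETTL14, KCNE4, a single-pass subunit that damps Kv currents, with 1.85 and 2.68 against 1.98 and 1.76, and KCNMB3, with 1.89 and 2.16 against 2.05 and 1.66. Their log2 values in sh-NC were 1.30 (SE 0.26), 1.15 (SE 0.30) and 1.01 (SE 0.10). KCNJ14 rested on 32 and 41 input counts in sh-NC, and 25.0% of its exonic bases are shared with other genes. KCNMB3 shares 3403 of its 8979 exonic bases with PIK3CA, which had 9763 counts over the 8 libraries against 3943 for KCNMB3. The enrichment of KCNMB3 is therefore uncertain. The cultures of the arms overlapped for KCNMB3 and KCNE4 but not for KCNJ14. The call of KCNE4 in sh-NC was lost without sh-NC culture 2 (log2 0.89), and those of KCNE4 and KCNJ14 in shMETTL14 without either shMETTL14 culture. That of KCNJ14 in shMETTL14 (adjusted p = 0.0444, edgeR) was also lost with DESeq2, with library size only, with a block for culture and with either other filter.

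Enrichment went with the length of the longest exon, as a description over genes. In sh-NC the median log2 IP over input was -0.16 for the 21 measured genes with a longest exon under 2 kb, -0.02 for the 32 genes with 2 to 4 kb and 0.29 for the 27 genes with 4 kb or more. The medians of all genes in these bins were -0.14, 0.07 and 0.15. Spearman's rho between the length of the longest exon and the log2 IP over input was 0.213 over the 80 genes and 0.211 over all genes, which share library and depth and are not independent. The arms, whose libraries are separate, gave like values per gene. Pearson's r between their log2 IP over input was 0.67 over the 80 genes and 0.92 over the 46 genes with at least 100 counts in every input.

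The difference of the arms in IP over input asked whether knockdown altered antibody enrichment of single genes. None of the 80 measured channel genes passed in the edgeR test (0 higher and 0 lower), nor in DESeq2. Over all genes tested 0% were called higher and 0.00436% lower. At an unadjusted p under 0.05 there were 3 higher and 1 lower of the 80, where all genes gave 3.03% higher and 3.32% lower. The SE of the log2 change was 0.059 to 0.27 for the 46 genes with at least 100 counts in every input and 0.27 to 0.97 for the other 34. Changes of the size of these errors were not detectable with 2 cultures per arm, and larger ones could also be missed. On simulated counts with 200 of 22953 genes changed, 56.5% of log2 changes of 0.5 and 10% of 0.25 were recovered, in genes with a mean of at least 50 counts. Fewer genes were called in the real data, so recovery there may be lower. A fall of m6A shared by most transcripts would cancel in this ratio. The ratio also pools all exons of a gene, so a change at 1 site could be diluted and missed. Single sites were not tested.

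The genes with the smallest unadjusted p are given as values. CACNA1D, an L-type pore that opens at low voltage, had an IP over input of 0.629 and 0.356 in sh-NC against 2.00 and 2.26 in shMETTL14 (log2 change 2.05, SE 0.77, adjusted p = 0.666, edgeR), on 11 to 20 input counts. KCNAB1, a beta subunit that inactivates Kv channels, had 0.986 and 0.867 against 0.558 and 0.699 (log2 change -0.56, SE 0.21, adjusted p = 0.680, edgeR), on 207 to 224 input counts. KCNK7 had 0.225 and 0.237 against 1.65 and 0.986 (log2 change 2.53, SE 0.97, adjusted p = 0.680, edgeR), on 10 to 15 input counts. None of the 3 was past the threshold. The arms did not overlap in any of them, which carries no weight since they were chosen by their p. The 25 genes called in the input had log2 changes of IP over input that did not pass either. For SCN9A the change was 0.01 (SE 0.074), for SCN3B -0.03 (SE 0.071) and for CACNA1B -0.09 (SE 0.10), and CACNA1C had the fourth unadjusted p under 0.05 (log2 change 0.28, SE 0.12, adjusted p = 0.717, edgeR).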

How the data were processed

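Counts of reads per gene for 8 MeRIP-seq libraries of SK-N-BE(2) cells were deposited by the authors as raw counts without normalization. The submitters' processing notes name Trimmomatic 0.36 and GRCh38. The counting tool, its strand setting and any removal of duplicate molecular identifiers are not given in the sources used here. In 360 pairs of genes where at least 90% of the exonic bases of 1 fell within an antisense gene read at 1 count per base or more, the inner gene reached 0.1 times the outer read density in 85.3%, so reads were taken as counted without strand and for more than 1 gene, and genes that share exons are uncertain. Of the measured members 33 share exonic bases with another gene, and 4 share over 20% of them. Exon positions in the table were used for lengths and coordinates, and all 135 members matched a RefSeq symbol. The rule for members and the gene lists were chosen with earlier results of these data known. Libraries were grouped by their titles.

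Tests used edgeR 4.0.16 in R 4.3.3 on all genes, with filterByExpr, TMM factors, glmQLFit and glmQLFTest, Benjamini-Hochberg adjustment over all genes tested and an adjusted p under 0.05. The 4 inputs were fitted alone for the input comparison, and all 8 libraries with 4 group means for IP over input and its change. SE was taken as |log2 fold change| over √F. IP over input of each culture was computed from CPM. Genes were named by rules of level, of the largest change within class and direction among calls, of IP over input in sh-NC, and of the smallest p of the change, together with partner genes and other calls. KCNH1, KCNH4, SCN2A and the low genes were named after their values were seen.

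A first alternative was a block, of replicate number for the inputs and of culture for IP over input and its change. Others were leaving out each culture, RLE factors or library size only as scaling, DESeq2 1.42.0, genes with no exon overlap, and a filter of at least 10 counts everywhere or of 1 read. Leaving out a culture leaves 1 in its arm, which is then taken to vary like the other arm. The chi-square per gene between replicates was 2.52 to 4.32. Some sparse genes had even counts in every library, so both mates of a read pair may have been counted, which was not tested. How far the replicates differed beyond sampling noise is therefore uncertain, and a count may not stand for 1 separate fragment. On simulated counts for the input comparison (22953 genes, 200 of them changed), 96% of log2 changes of 1, 69% of 0.5 and 34.5% of 0.25 were recovered. For the change of IP over input the shares were 88.5%, 56.5% and 10%. The Benjamini-Hochberg threshold depends on how many genes change. More were called in the real input comparison and fewer in the real change, so recovery there may differ. The changed genes were drawn from those with a mean of at least 50 counts over the 8 libraries, so these shares do not describe the 18 measured members below it. Library totals make counting error small for abundant members, and the number of cultures sets the precision. Some genes that these rules name are not reported here, though they remain in counts and sums.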

Additional observations from a re-analysis of the deposited data

How the results depend on the processing

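The count of channel genes called in the input fell from 16 higher and 9 lower to 10 and 7 with DESeq2, to 9 and 4 with no filter beyond 1 read, and to 9 and 6 over genes with no exon overlap, which tests fewer genes. Leaving out 1 culture gave 5 to 14 higher and 2 to 8 lower, lowest without shMETTL14 culture 2 in both. For IP over input in sh-NC, genes with no exon overlap gave 9 higher and 8 lower, library size only gave 22 lower, and leaving out 1 culture gave 17 to 21 higher and 9 to 12 lower. In shMETTL14 the same restriction gave 12 higher and 9 lower, and leaving out 1 culture 18 to 26 higher and 8 to 16 lower, with 8 lower without shMETTL14 culture 1. Partner genes called in the input went from 10 higher and 8 lower to 4 and 3 with no exon overlap and to 5 lower with no filter beyond 1 read, and ranged over 3 to 9 higher and 5 to 8 lower when 1 culture was left out. The change of IP over input had 0 calls in each setting, and the log2 fold change of METTL14 stayed between -1.84 and -1.74. Of the values of named genes, 451 kept direction and side of the threshold, 67 lost the threshold and 6 turned sign, none of which was past it. CACNA2D1 in the input was -0.017 without sh-NC culture 2 and -0.005845 when shMETTL14 culture 2 was left out (range over cultures -0.017 to 0.06094). KCNH2 in the input was 0.003443 with no filter beyond 1 read and -0.03867 to 0.0126 when 1 culture was left out, positive without shMETTL14 culture 2. IP over input in shMETTL14 was -0.01738 to 0.7219 for KCNK7 and -0.8327 to 0.3332 for SCN2B, both turning sign without shMETTL14 culture 1. The causes of these shifts were not tested.

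With the replicate number as a block the input comparison gave 16 higher and 10 lower. With the culture as a block IP over input gave 21 and 14 in sh-NC against 23 and 15 in shMETTL14, and its change 0. Same-numbered inputs of the arms had deviations that correlated by -0.015 over 22953 genes. The IP and input of a culture, which share RNA, correlated by -0.0079 and -0.0062. Since these also lay near 0, the measure cannot tell whether the number pairs the inputs.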
